A study of Rattus norvegicus with 12 samples.

Results

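The nuclear genes of the mitochondrial respiratory chain were read out on 12 arrays of rat colon. They were chosen by the gene name that the array files carry: names starting with Nduf, Uqcr, Cox4 to Cox8 or Atp5, Sdh followed by a to d, and the names Cyc1 and Cycs. This gave 119 probes of the 30367 on the array, for 95 genes. A probe was kept where at least 0.5 of its spots carried the scanner program's good flag on at least 6 of the 12 arrays, which left 107 probes for 90 genes, among 10449 named genes tested in all. The kept genes held 38 of complex I, 4 of complex II, 8 of complex III, 14 of complex IV and 16 of complex V. Cox6c-ps1, by its name a pseudogene, is counted in complex IV under the name rule. The kept genes also held the gene of cytochrome c. The other 9 carry such a name without being subunits: 6 Ndufaf genes and Sdhaf2, which assemble the complexes, Dmac2 (array name Atp5sl), and Emc8 (array name Cox4nb), which belongs to a complex of the endoplasmic reticulum.

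The samples were from male Wistar rats of 180 to 200 g that ate a normal-protein diet (6 arrays) or a high-protein diet (6 arrays) for 6 weeks. Total RNA of tissue labelled as colonic epithelium was hybridised in a single colour, with 4 arrays on each of 3 slides and 2 arrays of each diet on a slide; slide itself separated 2 genes (0.0191%) and 0 members (limma). The comparison asks how dietary protein content changes colonic transcripts. The labels do not say that the replicates were separate animals, so the p-values measure the spread between these samples, part of which may be technical.

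The respiratory chain passes electrons from NADH (complex I) and succinate (complex II) through complex III and the small carrier cytochrome c to oxygen at complex IV, and complex V makes ATP from the proton gradient that builds up. Most subunits are encoded in the nucleus and a few in the mitochondrial genome, and many nuclear subunit genes are known targets of the factors NRF1, GABP (of the ETS family, also called NRF2) and YY1. Colonocytes rely on this chain to burn butyrate, the short-chain fatty acid that gut bacteria make from fibre. None of the probes was named for a subunit of the mitochondrial genome, so the values cover the nuclear side of the chain.

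The promoters of 3 genes that recur in the results are printed first, since letters of these factors' sites are in them. Cycs and Atp5po had the smallest diet p-values among the members. Ndufb7 was the 1 member called for the position score described below. That call was kept in 13 of 27 alternatives, some of which left its values unchanged. The promoters are RefSeq sequences of the GRCr8 assembly, in the direction of the gene, from 250 bases before the start to 30 after it. Capitals mark matches on either strand to GCATGCGC (core of the NRF1 site), CCGGAAG (core of an ETS site) or AAGATGGC (core of the YY1 site).
Cycs, chr4:80984738-80985017, minus strand: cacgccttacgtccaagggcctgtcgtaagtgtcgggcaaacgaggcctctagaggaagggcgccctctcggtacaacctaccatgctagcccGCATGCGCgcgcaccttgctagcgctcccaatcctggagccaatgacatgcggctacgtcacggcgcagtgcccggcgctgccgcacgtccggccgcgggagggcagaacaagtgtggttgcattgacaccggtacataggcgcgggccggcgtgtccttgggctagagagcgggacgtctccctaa
Atp5po, chr11:44657454-44657733, minus strand: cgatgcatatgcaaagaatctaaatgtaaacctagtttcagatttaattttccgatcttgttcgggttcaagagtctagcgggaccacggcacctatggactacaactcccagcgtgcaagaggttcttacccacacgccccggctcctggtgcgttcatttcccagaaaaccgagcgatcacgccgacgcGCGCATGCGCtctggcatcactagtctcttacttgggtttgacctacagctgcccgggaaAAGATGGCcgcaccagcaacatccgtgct
Ndufb7, chr19:41477262-41477541, minus strand: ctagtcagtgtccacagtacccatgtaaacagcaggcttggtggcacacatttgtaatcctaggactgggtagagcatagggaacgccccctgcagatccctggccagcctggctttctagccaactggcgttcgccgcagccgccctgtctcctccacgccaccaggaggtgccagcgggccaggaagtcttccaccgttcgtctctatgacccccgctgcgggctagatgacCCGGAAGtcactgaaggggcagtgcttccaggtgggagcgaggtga
In Cycs the NRF1 letters began 157 bases before the start. In Atp5po they began 59 bases before it on the minus strand and 57 bases before it on the plus strand, overlapping because the site reads nearly the same on both strands, and YY1 letters began 1 base after the start. In Ndufb7 the ETS letters began 16 bases before the start.

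Over windows from 250 bases before to 50 after the start, RefSeq promoters were found for 73 of the 90 kept genes and for 66 of the 81 subunit and cytochrome c genes. NRF1 letters were in 13.6% of those 66, ETS letters in 30.3% and YY1 letters in 22.7%, and 33 of the 66 (50%) held at least 1 of the 3. The same shares were 2.66%, 9.22%, 3.44% and 14.1% over all 27457 promoters of the table, and 5.14%, 18.7%, 5.77% and 26.5% over the 7280 promoters of genes tested here. TATAAA, the core of the TATA box, was in 6.06% of the subunit promoters, 14.3% of all and 7.69% of those tested. The place of the YY1 letters was also counted. They lay on the gene's own strand at or after the start in 11 of the 15 subunit promoters that held them (73.3%), beside 344 of 945 (36.4%) over the whole table and 204 of 420 (48.6%) over the tested genes; the difference was not tested. The 11 comprised 8 of 8 in complex I (Ndufa2, Ndufa3, Ndufa6, Ndufa9, Ndufb8, Ndufs4, Ndufs6 and Ndufs7), 1 of 1 in complex II, 0 of 1 in complex III, 0 of 1 in complex IV and 2 of 4 in complex V. AAGATGGC holds ATGG, the letters of a favoured start codon, and the search does not tell a start codon from a factor's site. The matches describe letters and not binding, and these arrays hold no measure of binding.

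Levels are normalized log2 intensities, so a difference of 1 is a doubling, and a difference below 0 means a lower level on high protein. The share of gene spots with a good flag ran from 42.7% to 55.9% across arrays, and no member had a saturated spot. The 13 fixed markers of simple epithelium were tested without exception, and so were 14 of the 15 smooth muscle markers, with a mean level of 11.29 ± 0.21 under normal and 11.11 ± 0.35 under high protein (SD, n = 6 each). The labelled epithelium thus came with muscle transcripts, and in bulk tissue fewer cells of a type and less RNA per cell cannot be told apart. The precision is limited by the 6 arrays a diet and, for probes with 1 spot, also by the noise between spots given below.

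No respiratory chain gene passed the test between the diets. The members' differences lay between -0.25 for Cycs and 0.20 for Atp5f1a, which is under 1.5-fold for each of the 90 genes. These are values of each gene's brightest probe. A dimmer Cycs probe gave -0.30, and a dimmer Uqcr11 probe -0.28 against -0.06 in its brightest. The highest difference of a dimmer probe was 0.17, in Ndufb4. The median difference was -0.03 over complex I, 0.05 over complex II, -0.04 over complex III, -0.05 over complex IV and -0.07 over complex V, beside 0.01 over all tested genes. These signs hold for quantile normalization: with arrays scaled to their median, all 5 medians lay above 0, as did that of all genes. With limma and Benjamini-Hochberg adjustment over all 10449 genes, 0 genes (0%) had an adjusted p below 0.05. The smallest adjusted p of any gene was 0.679, and the smallest of a member was 0.701 (limma). Before adjustment, 3 members had p below 0.05 and all 3 were lower, beside 309 lower genes (2.96%) and 383 higher ones (3.67%) over the whole array, together 6.62%. On the lower side, 3 of 90 members is near the 2.96% of all genes. On the higher side there were 0 members beside 3.67%.

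**Figure D1:**
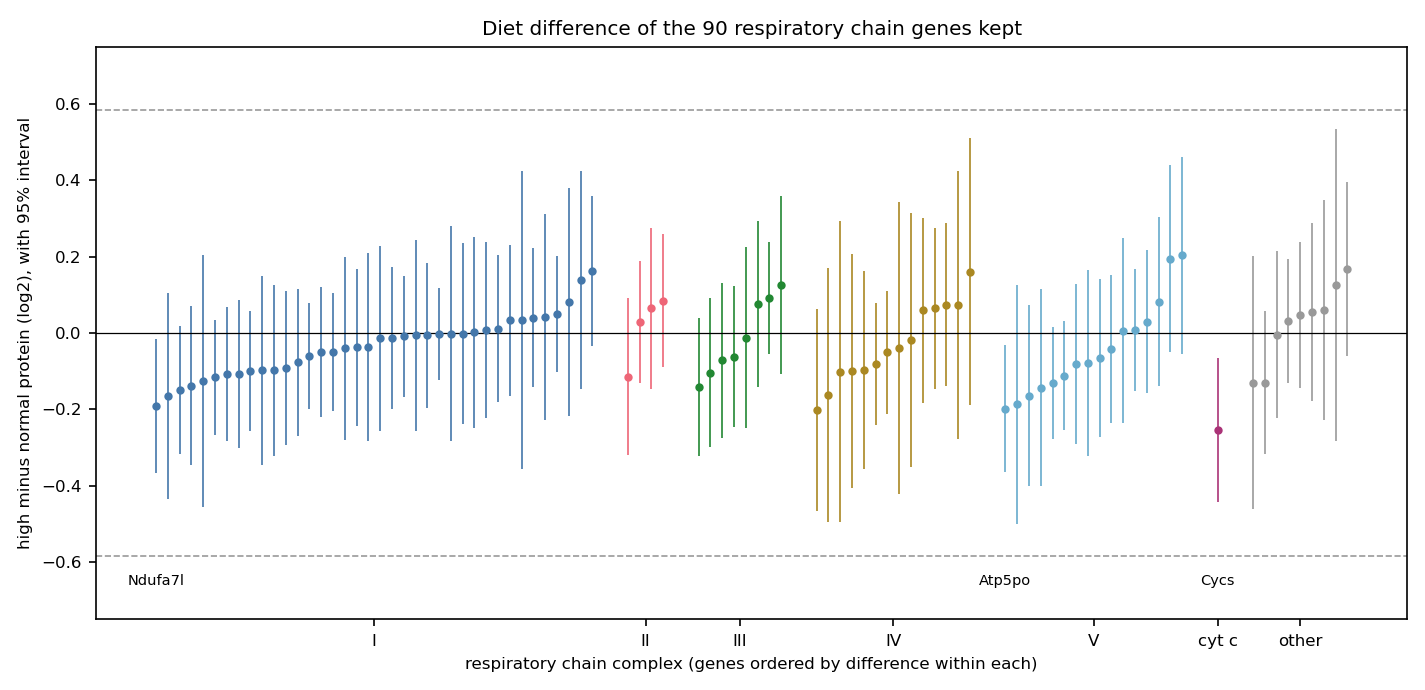
Difference of each of the 90 kept genes between high and normal protein (log2, y axis), ordered within each complex (x axis). Points are limma estimates from 6 arrays a diet, bars are 95% intervals and dashed lines mark 1.5-fold; no bar reaches a dashed line, and the 3 named genes are those with an unadjusted p below 0.05.

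The intervals bound how large a difference these arrays allow. For 90 of 90 members the 95% interval of the diet difference lay within 1.5-fold in either direction, which held for 84.7% of all tested genes. It also lay within 2-fold for 90 of 90, beside 95.5% of all. Under median scaling of the arrays in place of quantile normalization, 79 members kept to 1.5-fold, and 85 did in the log2 values that the authors deposited.

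The carrier came first by p-value. Cytochrome c, from Cycs, shuttles electrons from complex III to complex IV and, when released into the cytosol, starts apoptosis. Its level ran from 11.99 through a median of 12.18 to 12.23 on normal protein. On high protein it ran from 11.63 through a median of 11.85 to 12.12. All 6 high-protein arrays lay below the normal-protein mean and 4 lay below every normal-protein array, so the diets overlapped in high protein replicates 2 and 6. The difference was -0.25 ± 0.09 (SE; 95% interval -0.44 to -0.06; limma adjusted p = 0.701). A dimmer Cycs probe gave 11.03 ± 0.20 and 10.73 ± 0.39 (SD, n = 6 each), a difference of -0.30. The difference was -0.23 within slide 1, -0.08 within slide 2 and -0.45 within slide 3. It stayed below 0 in 25 of 25 alternatives, from -0.30 to -0.08, with adjusted p between 0.525 and 0.922 (limma). Some of these could not move the estimate. Blocks of slide or replicate number hold both diets equally, and with slide as a block it was again -0.25. No Cycs probe had a saturated spot, so leaving out saturated probes changed nothing.

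Complex V couples a proton-driven membrane rotor to the catalytic F1 head. Atp5po encodes OSCP, which ties the head to the outer stalk. Its level was 13.04, 13.20 and 13.31 (lowest, median, highest) with normal dietary protein, and 12.79, 12.98 and 13.17 with high. All 6 high-protein arrays were below the normal-protein mean and 4 below all normal-protein arrays. The difference was -0.20 ± 0.08 (SE; limma adjusted p = 0.706), and -0.003 with median scaling.

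Other complex V genes lay on both sides of 0. Atp5f1a, the alpha subunit of the head, had the highest difference of all members, 0.20 ± 0.12 (SE), with 14.12 ± 0.09 on normal and 14.33 ± 0.29 on high protein (SD, n = 6 each). High protein replicate 2 at 14.86 stood above the rest, and without it the difference was 0.10. The genes Atp5mc1, Atp5mc2 and Atp5g3 encode the same mature c subunit of the rotor, and their differences were 0.01 ± 0.11, 0.19 ± 0.11 and -0.14 ± 0.12 (SE), none with an unadjusted p below 0.05. That of Atp5g3 was -0.04 without high protein replicate 3, and with median scaling the 3 were 0.18, 0.34 and 0.03. Atp5mg (subunit g) was 12.90 ± 0.05 and 12.77 ± 0.11, with 5 of 6 high-protein arrays below every normal-protein array and replicate 3 above them. Atp5me (subunit e) differed by -0.19 with normal protein replicate 1, at 14.83, and by -0.05 without it.

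Complex I takes electrons from NADH, and 27 of its 38 kept genes (71.1%) had a difference below 0, beside 48.5% of all genes. With median scaling its median turned from -0.03 to 0.14. Ndufa7l, named as a copy of Ndufa7, was 10.19, 10.36 and 10.52 with normal dietary protein (lowest, median, highest), and 10.05, 10.13 and 10.32 with high. Its difference of -0.19 ± 0.08 (SE; limma adjusted p = 0.726) was -0.03 within slide 1, -0.30 within slide 2 and -0.24 within slide 3, and with median scaling it was -0.01. Whether its probe also binds Ndufa7 transcripts was not tested, and Ndufa7 itself differed by -0.04 ± 0.11 (SE). The same holds for Ndufb4l1, also named as a copy, with the highest difference of the complex, 0.16 ± 0.09 (SE). Ndufs6, an accessory subunit beside the iron-sulfur clusters, was 11.34 ± 0.10 on normal and 11.19 ± 0.13 on high protein. Its difference of -0.15 was 0.01 in the dimmer Ndufs6 probe, and 0.01 with median scaling. Ndufb10 lay on the other side at 0.14 ± 0.13 (SE), but its dimmer probe gave -0.21. Ndufa1, a small subunit needed to build the membrane arm, was 12.34 ± 0.24 and 12.34 ± 0.17, with 3 high-protein arrays above and 3 below the normal-protein mean.

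**Figure D2:**
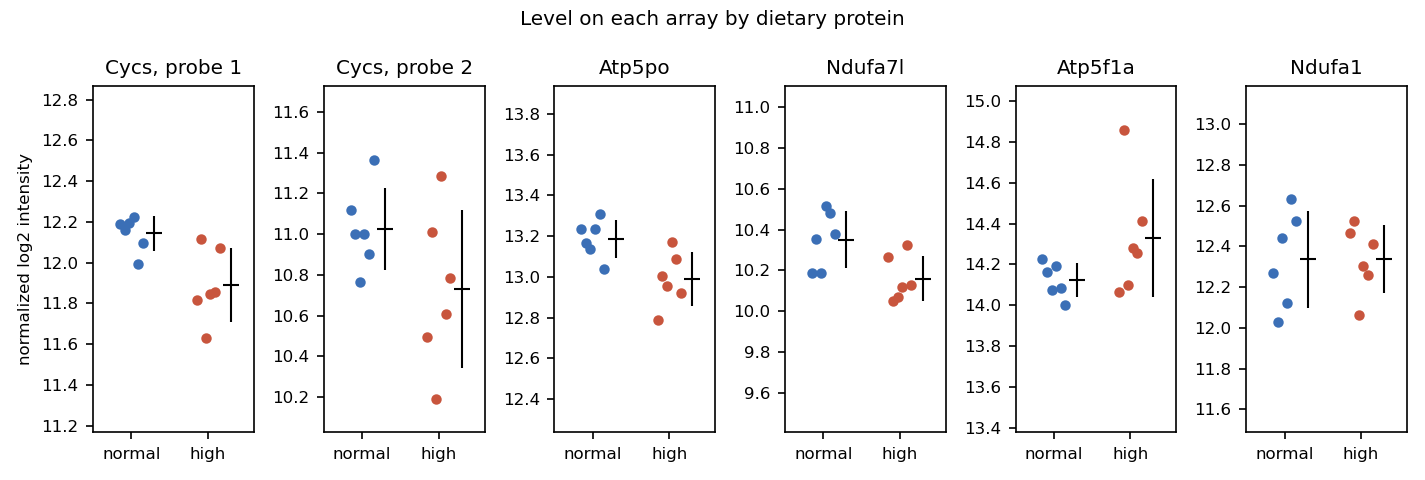
Normalized log2 intensity (y axis, the same height of 1.7 log2 units in each panel) on the 6 arrays of each diet for both Cycs probes, Atp5po, Ndufa7l, Atp5f1a and Ndufa1. Points are arrays and bars the mean ± SD; the diets overlap in all 6 panels, and Ndufa1 has the same mean in both.

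Complex II, the only complex with no mitochondrially encoded subunit, also runs the succinate step of the citric acid cycle. Sdha, which holds the flavin, was 11.32 ± 0.14 on normal and 11.40 ± 0.10 on high protein. The iron-sulfur subunit gene Sdhb was 11.08 ± 0.08 and 11.15 ± 0.22. The membrane anchors were 10.55 ± 0.14 and 10.43 ± 0.17 for Sdhc, and 11.89 ± 0.10 and 11.92 ± 0.11 for Sdhd (SD, n = 6 each). These 4 genes thus had differences of 0.08, 0.06, -0.11 and 0.03, none with an unadjusted p below 0.05.

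Complex III hands electrons from ubiquinol to cytochrome c. Cyc1, its cytochrome c1, was 13.13 ± 0.08 on normal and 13.26 ± 0.25 on high protein (SD, n = 6 each). Its high-protein arrays spread from 12.83 to 13.53, around a normal-protein range of 12.999 to 13.22, and in the authors' value table the difference was 0.0017. Uqcrb was 12.53 ± 0.16 and 12.39 ± 0.09, with all 6 high-protein arrays below the normal-protein mean. Uqcrh, the acidic hinge subunit, was 12.70 ± 0.05 and 12.79 ± 0.12, with all 6 above it. The lowest of these was 12.700 beside a mean of 12.699, and the highest were replicates 4 (12.97) and 6 (12.90). Neither gene had an unadjusted p below 0.05. Their differences of -0.14 and 0.09 lay on opposite sides of 0, but with median scaling both lay above it, at 0.07 and 0.30.

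Complex IV reduces oxygen, and several of its subunits come in tissue isoforms. Cox4i1, the general isoform of subunit 4, was 13.89 ± 0.11 and 13.84 ± 0.10, and Cox4i2, the isoform known from lung, was 9.10 ± 0.21 and 9.08 ± 0.35 (normal and high protein; SD, n = 6 each). Of the liver-type isoforms, Cox6a1 differed by -0.10 ± 0.14, Cox7a2 by 0.07 ± 0.10 and Cox8a by -0.08 ± 0.07 (SE). That of Cox6a1 was -0.01 without high protein replicate 4, and the dimmer Cox7a2 probe gave -0.08. The muscle-type Cox6a2 and Cox8b were flagged good on 4 arrays and 1 array and were not tested, and Cox8c was good on 0. Cox7a2l, which helps join complexes III and IV, differed by 0.06 ± 0.10. Cox6b2, the testis isoform of subunit 6b, differed by -0.10 ± 0.12 (SE). The lowest difference in the complex was that of Cox5b, 13.26 ± 0.17 and 13.05 ± 0.26, of which high protein replicate 3 at 12.57 was the lowest array; the difference of -0.20 was -0.11 without it. The highest was that of Cox6c, 13.07 ± 0.38 and 13.23 ± 0.20, a difference of 0.16, or 0.065 without normal protein replicate 3.

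The 9 kept genes with a similar name but another role, mostly assembly factors, had a median difference of 0.05, from -0.13 to 0.17. Of the genes not kept, Ndufaf2 was flagged good on 0 arrays and Dmac2l (array name Atp5s) on 5.

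A small common shift in 1 direction depended on the scaling. With quantile normalization 56 of 90 members lay below 0, beside 48.5% of all genes. With arrays scaled to their 75th percentile 46 did, and with arrays scaled to their median only 9 did, where the median of all genes was itself 0.10. No direction of the chain as a whole is therefore given. Of the 41 members followed singly through the alternatives, median scaling turned 16 of the 23 below 0, and 0 of the 18 above it. Leaving out 1 array turned the sign in 11 of the 41. In no member were the diets free of overlap, beside 0.287% of all genes higher and 0.0957% lower without overlap.

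Quantile normalization held the mean of all tested genes on an array between 8.52 and 8.56. With it, the mean of a complex on an array moved by at most 0.26. It ran from 11.01 to 11.20 for complex I, 11.12 to 11.32 for complex II, 11.26 to 11.42 for complex III, 11.63 to 11.89 for complex IV and 12.54 to 12.77 for complex V. Of the 81 subunit and cytochrome c genes, the highest array was high protein replicate 4 for 19, normal protein replicate 6 for 17 and normal protein replicate 5 for 14. Their lowest was high protein replicate 3 for 14, high protein replicate 1 for 12 and high protein replicate 2 for 10. Normal protein replicate 3 and high protein replicate 6 were lowest for 9 each. Arrays of both diets were thus among the high ones, while those most often lowest under this normalization were high-protein arrays. The same counts over all tested genes were not made, and no diet direction is read from these.

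**Figure D3:**
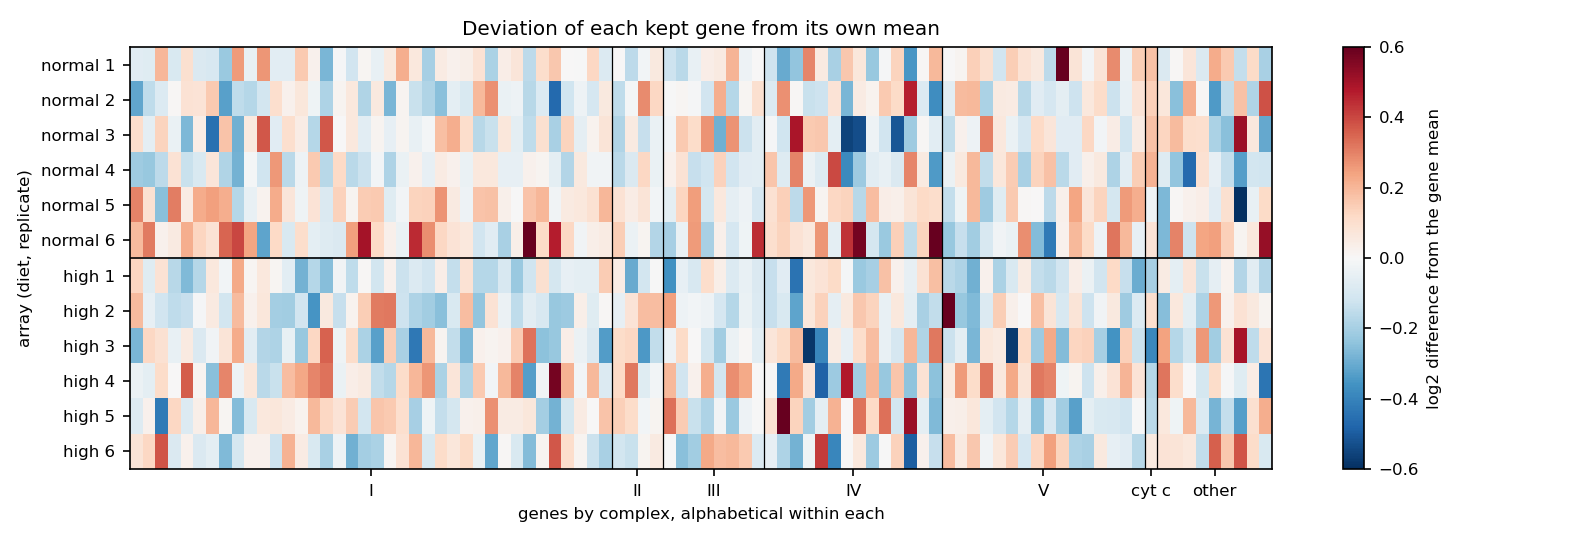
Deviation of each kept gene from its own mean over the 12 arrays (colour, log2, from -0.6 to 0.6), genes by complex (x axis) and arrays by diet and replicate (y axis). Deviations are scattered over genes and arrays of both diets, and complex IV holds many of the strong colours.

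Arrays differed in Hox genes that mark position along the gut, while the labels used here give no position along the colon. Hoxb13 is a homeobox gene of the hind end of the gut, and Hoxb6 and Hoxb7 are expressed further forward. A position score was taken as the level of Hoxb13 less the average level of Hoxb6 and Hoxb7. It ran from -4.72 to 5.57 and was high on arrays of both diets. In normal protein replicate 4 Hoxb13, Hoxb6 and Hoxb7 were all low (5.83, 6.90 and 6.87), so its score of -1.06 rests on dim values. Position below means this score. This score was used because earlier results of these data showed it. In a limma fit with diet and the score, 621 genes passed (5.94%), 356 of them higher with the score (3.41%) and 265 lower (2.54%).

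Of the 90 members, 1 passed, Ndufb7, an accessory subunit on the intermembrane-space side of complex I. From the lowest score to the highest, its levels were 11.20 (high protein 3), 11.29 (normal protein 6), 11.27 (high protein 4), 10.96 (normal protein 4), 11.00 (normal protein 3), 11.15 (normal protein 5), 10.81 (normal protein 1), 10.90 (high protein 1), 10.99 (high protein 5), 10.83 (normal protein 2), 10.92 (high protein 6) and 10.80 (high protein 2). The 3 arrays of lowest score were the 3 highest, and the 6 of highest score lay at or below 10.99. The slope was -0.037 ± 0.009 per unit of score (SE; limma adjusted p = 0.0297), or -0.39 over the whole range of 10.29 units. Over 27 alternatives it was below 0 in 27, with adjusted p from 0.0235 to 0.612 and below 0.05 in 13 (limma). Ndufb7 has 1 kept probe, flagged good on 12 arrays and never saturated. Dropping the flag filter, asking for good flags on all 12 arrays, averaging probes or leaving out saturated probes therefore kept its slope at -0.037. These settings are among the 13 and could not have moved the slope. The call was lost without normal protein replicate 1, 2 or 6 or high protein replicate 2, 3 or 4, each on its own, with slide as a block, and with either scaling in place of quantile normalization.

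The slopes of the other 89 members lay between -0.040 and 0.030, and before adjustment 3 of them above 0 and 4 below had p under 0.05, beside 20.0% of all genes. Cox5a had the steepest of all members, -0.040 (limma adjusted p = 0.191), and 1584 tested genes (15.16%) had a steeper one. Slopes of Ndufa3 (-0.036), Ndufb10 (-0.031), Ndufa7 (0.030), Cox7a2l (0.026), Atp5pf (-0.026) and Sdhd (0.020) did not pass. The median slope was -0.005 for complexes I and III, 0.004 for complex II, -0.004 for complex IV and -0.002 for complex V, beside 0.001 over all genes. Under median scaling all 5 lay above 0, between 0.011 and 0.023. With position in the model no gene passed for diet (limma, smallest adjusted p = 0.332, and 0.465 among members), and the members' median difference was -0.03 as before. The median slope of the smooth muscle markers was 0.022 and that of the epithelial markers 0.031, and 0 members were called with the smooth muscle score as a covariate. The part of cell makeup in Ndufb7's slope was not tested further.

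**Figure D4:**
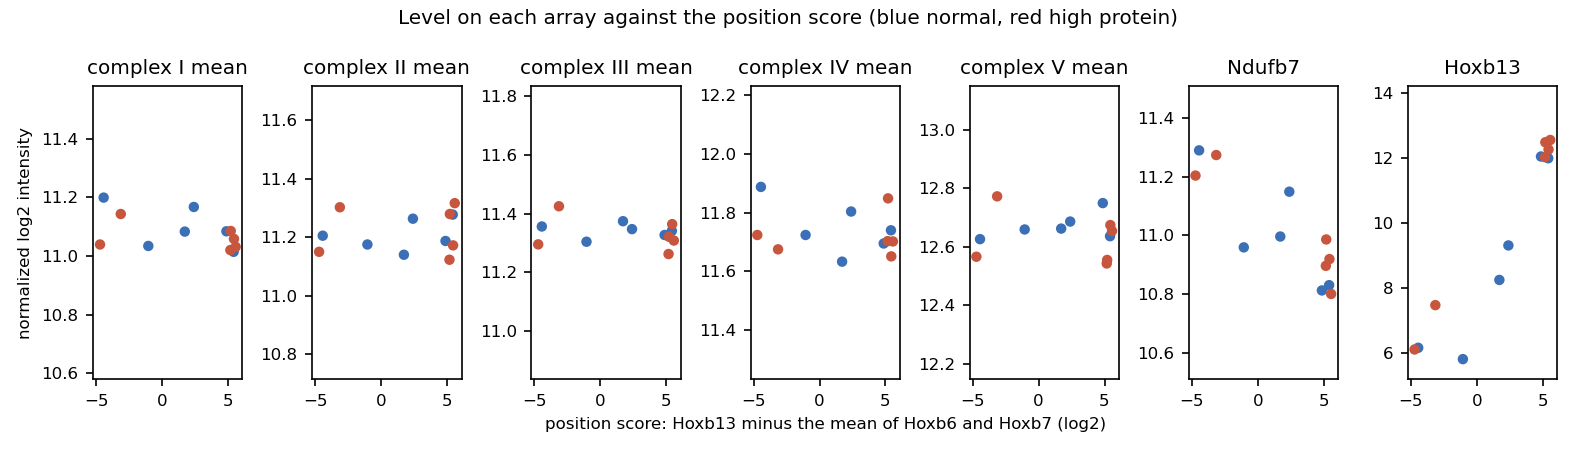
Mean level of the kept genes of each complex, level of Ndufb7 and level of Hoxb13 (normalized log2 intensity, y axes) against the position score (log2, x axis), 1 point for each of the 12 arrays, blue for normal and red for high protein. The y axes span 1 unit, and 9 for Hoxb13. With quantile normalization complex means stay within 0.26 units while Ndufb7 is highest on the 3 arrays of lowest score.

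The spread of the members between arrays was mostly small with quantile normalization. Their SD over the 12 arrays had a median of 0.165, beside 0.202 for all tested genes and 0.221 for the tested genes with a mean of 10 or more. It was below the median of all genes in 67 of 90. With 75th percentile scaling the medians were 0.177 and 0.218, but with median scaling both were 0.246, and without the filter on flags that of all genes was 0.151. Ndufv1, which binds NADH and the flavin of complex I, had the lowest SD, 0.043, and stayed between 11.91 and 12.03 on all 12 arrays.

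Complex IV had the widest spread. Its median SD was 0.245, with 5 of 14 genes below the median of all genes, against 0.156 (31 of 38) in complex I, 0.143 (4 of 4) in complex II, 0.152 (8 of 8) in complex III and 0.167 (12 of 16) in complex V. The difference between the complexes was not tested. The 14 of complex IV include Cox6c-ps1, by its name a pseudogene, with an SD of 0.37 on normal and 0.22 on high protein. The highest SDs were those of Ndufa4 (0.334) and Cox7c (0.319), while Cox4i1 had 0.106 and Cox8a 0.109. Ndufa4, once counted to complex I and now to complex IV, was 11.67 in normal protein replicate 6 and 10.51 to 11.20 elsewhere. In complex I, Ndufs7, which holds an iron-sulfur cluster next to the ubiquinone site, had the highest at 0.326.

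**Figure D5:**
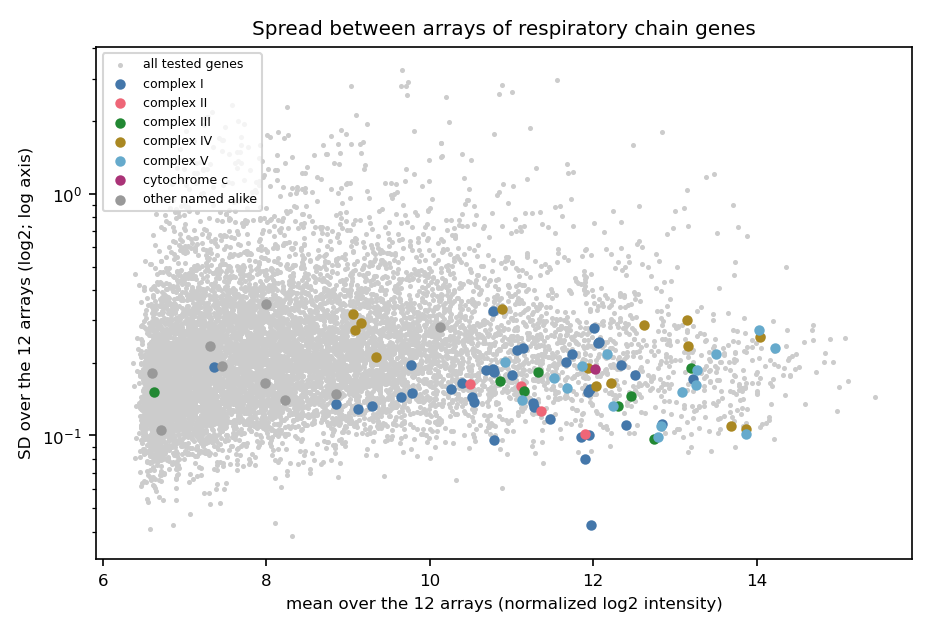
SD over the 12 arrays (log2, on a log axis) against the mean level (normalized log2 intensity) of all tested genes in grey and of the kept respiratory chain genes in colour by complex. With this quantile normalization most coloured points lie low in the grey cloud, Ndufv1 lowest at 0.043, while 9 of the 14 complex IV genes lie above 0.202.

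Repeated spots give the noise between spots of 1 array, but not labelling, hybridisation or other steps that all spots of an array share. Within the 15 probes with 10 spots, the residual SD of a single spot had a median of 0.130. For each probe this residual was smaller than the plain spread of its spots on an array. That spread ran from 0.128 (Ndufs3) to 0.274 (Ndufa6). The mean of 10 spots varied between arrays with a median SD of 0.117, in which biological and shared technical variation cannot be told apart. The 92 kept probes with 1 spot had a median SD of 0.175, and in 12 of them the SD was below 0.130. For 15 genes with several kept probes, the 2 brightest probes had a median Pearson r of 0.118 over the 12 arrays. It was above 0.5 for 3 genes, Ndufa10l1 (0.79), Ndufa13 (0.69) and Cycs (0.62). Only that of Ndufa10l1 passed adjustment over the 15 genes (permutation p = 0.00202, adjusted 0.0303; Spearman's rho 0.73, permutation p = 0.00926, adjusted 0.139). Its r was 0.62 without the 2 arrays farthest from the median. For Cycs rho was 0.41, the permutation p of r was 0.0316 (adjusted 0.158; 0.772 for rho), and r fell to 0.09 without the 2 farthest arrays, so it rests on them. The diet difference had the same sign in both probes for 11 of the 15 genes.

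Other mitochondrial genes were read out beside the chain, from lists chosen with earlier results known. Of the mitochondrial biogenesis regulators, 0 of 12 tested genes passed for diet, and 1 had an unadjusted p below 0.05, beside 6.62% of all genes. This was Ppargc1b, a coactivator of respiratory chain genes, which ran from 6.838 through 7.0015 to 7.145 with normal dietary protein (lowest, median, highest), and from 7.207 through 7.316 to 7.556 with high. Its diets did not overlap, as in 30 tested genes higher on high protein (0.287%), with a difference of 0.34 ± 0.08 (SE; limma adjusted p = 0.679) at a level near the bottom of the scale. Esrra, the nuclear receptor that works with it, differed by 0.20 ± 0.12, and Nrf1, Gabpa and Yy1, whose letters were searched for above, by -0.07 ± 0.07, 0.03 ± 0.06 and 0.03 ± 0.08 (SE). The list's mean differed by 0.07 (exact two-sided permutation p = 0.0844, adjusted over 17 lists 0.435).

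Supply pathways gave no call either. The citric acid cycle list, 0 of 13 called, had a mean difference of -0.03 (exact two-sided permutation p = 0.602, adjusted 0.787), with Mdh2, the malate dehydrogenase, lowest in p at -0.24 ± 0.11 (SE). Glycolysis, 0 of 17 called, differed by -0.12 (exact permutation p = 0.113, adjusted 0.435), pyruvate entry, 0 of 11, by -0.05 (p = 0.262 by the same exact test, adjusted 0.495), and mitochondrial import and carriers, 0 of 19, by 0.01 (exact p = 0.745, adjusted 0.844). Assembly factors outside the name rule, 0 of 25 called, differed by -0.01 (exact p = 0.708, adjusted 0.844), and mitochondrial defence against reactive oxygen, 0 of 9, by -0.02 (exact p = 0.537, adjusted 0.76). Of the 106 tested genes of these and the biogenesis list, 7 lists in all, 6 (5.66%) passed for position, a share near the 5.94% of all genes. Surf1, a complex IV assembly factor, fell with the score by 0.035 per unit (limma adjusted p = 0.0244), Gpx4 fell by 0.075 and Pdk3 by 0.081, and Hk1 rose by 0.113, Pdp1 by 0.129 and Nnt by 0.058.

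Markers of cell types did not pass between the diets. The goblet cell list had a difference of -0.42 (exact two-sided permutation p = 0.039, adjusted 0.435), with 0 of 10 genes called, and Zg16, a goblet cell granule protein, had -1.12 ± 0.33 (SE; limma adjusted p = 0.679). Absorptive colonocyte markers differed by -0.29 (exact p = 0.121, adjusted 0.435) and simple epithelium by -0.10 (exact p = 0.457, adjusted 0.706). Smooth muscle differed by -0.18 (exact p = 0.392, adjusted 0.666), enteroendocrine by -0.42 (0.154 by the same exact test, 0.435 adjusted) and macrophage and dendritic markers by -0.22 (exact p = 0.145, adjusted 0.435). Fibroblast (-0.15), endothelial (-0.07), enteric neuron and glia (-0.27) and skeletal and cardiac muscle markers (0.01) had adjusted exact permutation p of 0.495, 0.913, 0.495 and 0.913. Lymphocyte (-0.05) and red blood cell markers (0.27) had under 5 tested genes and no test. The part of these in the members' values was not tested beyond the smooth muscle covariate.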

How the data were processed

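Per the file headers, the deposited files hold spot intensity on a linear scale from GenePix, not normalized, and the share of saturated pixels as a percent. Per the labels, the authors' value table holds log2 values; the submitters' processing notes name RMA, and other steps were not given in the sources used here. Its IDs match the scanner values only when moved by 1 row (median correlation 0.997, against 0.004 as given), and it was used only so.

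Mean pixels were background-corrected against the median local background (normexp, offset 50) and quantile normalized on the log2 scale. Controls were then dropped, spots of a probe averaged, probes filtered on flags, 1467 unnamed probes left out and the brightest probe per gene kept. limma 3.58.1 (R 4.3.3; lmFit, eBayes, Benjamini-Hochberg, 0.05) was fitted on all 10449 genes for diet, and for diet with the position score as a continuous covariate. List means were compared over all 924 assignments of arrays by an exact permutation test. The fit was tested on simulated data.

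The members and gene lists were chosen with earlier results of these data known. Named genes were Cycs, Ndufa1, Cyc1, complex II, isoform sets, and by complex those of smallest p or largest SD; Cox7c, Ndufv1, Ndufa13 and Ndufa10l1 were chosen after their values were seen. No pair of arrays held identical values. Alternatives covered scaling, background, pixel summary, flags, probes of a gene, saturation, the value table, slide, replicate number, smooth muscle, the score, and each array left out.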

Additional observations from a re-analysis of the deposited data

Results flagged for a closer look

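Groups of 6 values were examined for the genes named, complex means, list means and position genes, by diet. Of 138 groups, 11 held an array whose gap to the others was large for 6 values. Chance gives about 1 in 20 for groups not chosen by their values. Some genes were named by smallest p or largest SD in these data, Atp5me by largest SD. The 11 therefore cannot be set against that rate. Ndufb10 was 12.44 in normal protein replicate 3 and 11.79 to 11.99 in the other normal-protein arrays. Uqcrq, near the bottom of the scale, was 7.075 in normal protein replicate 6 and 6.528 to 6.726 in the others. Cox6c was 13.63 in high protein replicate 4 and 13.1 to 13.21 in the others. Atp5me was 14.83 in normal protein replicate 1 and 13.87 to 14.06 in the others. The mean of complex IV was 11.85 in high protein replicate 5 and 11.65 to 11.72 in the other high-protein arrays.

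In normal protein replicate 6, Hoxb6 was 10.95 (others 6.511 to 7.325) and Hoxb7 was 10.29 (others 6.381 to 7.039). The same array had a simple epithelium mean of 11.97 (others 12.41 to 12.63) and an endothelial mean of 8.818 (others 7.774 to 7.98). The smooth muscle mean was 10.42 in high protein replicate 4 (others 11.08 to 11.38), and the enteric neuron and glia mean was 8.147 in high protein replicate 3 (others 7.247 to 7.578).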

How the results depend on the processing

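Diet without the score gave 0 called genes in each alternative run, including each array left out. Median scaling moved the median diet difference to 0.14113 for complex I, 0.21435 for complex II, 0.14563 for complex III, 0.086092 for complex IV and 0.10122 for complex V, and the median position slope to 0.012401, 0.023293, 0.013065, 0.010875 and 0.017673 for complexes I to V. Scaling to the 75th percentile gave 0.019782 for the diet median and 0.0059799 for the slope of complex III. The cause of these moves was not tested. The position call of Ndufb7 was not made (0 members called) with either scaling, an offset of 16, the value table, slide as a block, the smooth muscle covariate or Hoxb13 alone as the score; the cause was not tested.

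Position calls over all genes numbered 392 in the value table and 366 with slide as a block. With the replicate number as a block they numbered 259, with 1 member, Ndufa4 (slope -0.083, limma adjusted p = 0.0475), and diet had 0. Same-numbered deviations correlated above 0.1 in 3 of 6 pairs, and 2 of 6 normal-protein arrays were closest to their own number. These values do not decide whether the numbers pair the arrays. Leaving out 1 array gave 337 (without high protein replicate 3) to 598 position calls, 0 to 2 of them members (Ndufaf3 and Ndufs5 without high protein replicate 4), and 0 to 1 diet calls beside position (1 without normal protein replicate 1).

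Of 525 values for the named genes' diet differences under other settings, 505 moved by less than 1 SD between arrays, 20 by more, and 34 changed sign; none of these genes was called. Dim probes such as Uqcrq sit near background, where changes are understated.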
